A study of Mus musculus with 12 samples.

Results

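The genes described here carry chromosomes through mitosis: the kinases and phosphatases that start division, the spindle checkpoint, the machinery of anaphase, centromere and condensin proteins, spindle proteins and cytokinesis factors, without the Kif genes of the kinesin motors. Of the 44 genes listed, 42 had a probe set of their own on the array and 77 probe sets were named to them, among 22690 probe sets and 12393 named genes in all. No probe set was named to Cdkn3 or Espl1 alone, so neither has a signal here, and they enter only through their promoters. All 42 genes passed the filter on low signals, which asked for a signal above 139.9 on at least 3 arrays. Fewer than 3 NMRI glands lay above it for 34 of them and none did for 26, so most passed through the transgenic tissue. The arrays held 3 mammary gland samples of female NMRI mice on the first day of lactation, 3 of female WAP-SVT/t mice of the NMRI strain at the same stage, 3 WAP-SVT/t breast cancers, and 3 breast cancer lines with 1 array for each: ME-A, ME-B, then ME-B-T/t, the order of their values here. The transgene makes the T and t antigens of simian virus 40 in mammary epithelial cells, and the Wap promoter that drives it belongs to a milk protein gene active in lactation. Per the labels ME-B-T/t was retransformed, ME-B is a revertant and ME-A carries neither name. They give no age of the mice and no lactation stage of the tumors. Whether each line is a single clone is not given in the sources used here, and the level of the transgene was not analysed here. The comparisons ask how the transgene's presence in the lactating gland, the step to a tumor and growth in culture went with the levels of these genes.

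Cells enter mitosis when Cdc25 phosphatases activate the cyclin-dependent kinase, and Polo and Aurora kinases then build the spindle. Checkpoint proteins at the kinetochore hold back the anaphase-promoting complex until each chromosome is attached, after which Cdc20 activates it and the sister chromatids part. Most of these genes are known to be transcribed late in the cell cycle and to be low in cells at rest, which makes them common markers of dividing tissue. The large T antigen inactivates RB proteins by binding them, and members of that family hold many of these promoters silent in resting cells through the DREAM complex. The B-MYB and FOXM1 proteins, encoded by Mybl2 and Foxm1, take part in switching the same promoters on.

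Promoter windows are shown because the genes moved together and such promoters are known for 2 short motifs, the CCAAT box and the element TTTGAA called CHR. RefSeq windows on build GRCm38.p6, with 250 bases before and 50 after the start of a gene, matched 36 of the 44 genes with 39 windows, where windows of 1 gene can overlap. The 6 genes shown first had the largest fitted rise in transgenic glands among genes with a window, and Cks1b is shown for its small difference. Each sequence is the 150 bases before the start, 5′ to 3′ on the strand of the gene, with CCAAT and TTTGAA on either strand in capitals.
Mki67, chr7:135716380-135716529, minus strand: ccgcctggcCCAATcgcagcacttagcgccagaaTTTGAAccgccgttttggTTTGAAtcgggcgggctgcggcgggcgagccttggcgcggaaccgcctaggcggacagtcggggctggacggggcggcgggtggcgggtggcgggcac
Top2a, chr11:99024190-99024339, minus strand: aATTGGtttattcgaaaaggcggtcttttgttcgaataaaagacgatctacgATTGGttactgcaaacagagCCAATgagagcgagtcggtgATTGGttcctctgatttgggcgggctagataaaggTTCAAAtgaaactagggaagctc
Hmgb2, chr8:57511693-57511842, plus strand: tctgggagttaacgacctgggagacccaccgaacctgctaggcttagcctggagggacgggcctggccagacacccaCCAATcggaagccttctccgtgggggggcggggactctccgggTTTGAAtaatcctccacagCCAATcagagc
Cdc20, chr4:118437344-118437493, minus strand: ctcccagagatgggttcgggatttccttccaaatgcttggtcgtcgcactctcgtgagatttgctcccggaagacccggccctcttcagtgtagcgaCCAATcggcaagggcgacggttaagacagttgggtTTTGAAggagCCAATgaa
Birc5, chr11:117849087-117849236, plus strand: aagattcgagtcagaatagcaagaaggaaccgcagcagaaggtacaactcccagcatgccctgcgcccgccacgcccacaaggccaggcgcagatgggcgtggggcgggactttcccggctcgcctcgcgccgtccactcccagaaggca
Ube2c, chr2:164769779-164769928, plus strand: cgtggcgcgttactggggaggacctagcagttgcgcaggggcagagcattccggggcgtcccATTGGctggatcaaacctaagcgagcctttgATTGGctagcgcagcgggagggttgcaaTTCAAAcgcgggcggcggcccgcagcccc
Cks1b, chr3:89418292-89418441, minus strand: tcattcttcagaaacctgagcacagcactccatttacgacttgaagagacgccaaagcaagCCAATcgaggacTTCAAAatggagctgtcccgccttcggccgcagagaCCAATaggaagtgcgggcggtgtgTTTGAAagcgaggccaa

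The windows include those of Cdkn3 and Espl1, which have no signal here. CCAAT stood in 30 of the 39 windows (76.9%), against 37.4% of the 32851 windows of all genes and 37.2% of the 8284 windows of genes tested in tissue. TTTGAA stood in 25 of the 39 (64.1%), against 17.9% and 11.8% of those windows. Over the 37 windows of genes with a signal the shares were 75.7% for CCAAT and 62.2% for TTTGAA. A related form of the element, TTCGAA, stood in 4 of the 39 windows (10.3%), against 1.56% of all and 2.14% of those of tested genes. One of the E2F words TTTCCCGC, TTTGGCGC, TTTCGCGC and TTTGCCGC stood in 1 window (2.56%), against 2.26% and 4.12%. Both strands were searched, over the whole window, and TTCGAA reads the same on both. A CCAAT began up to 50 bases before a TTTGAA in 19 windows (48.7%), against 1.7% of all windows and 1.39% of those of tested genes, a spacing that was counted after the matches had been seen. Of 73 CCAAT matches, 42 began in the 100 bases before the start, and of 32 TTTGAA matches 11 did. Neither motif was found in the windows of Birc5, Mad2l1, Melk, Mybl2, Ncaph, Nusap1, Plk4, Pttg1 and Tacc3. The differences of these genes in transgenic glands were 1.14 to 3.98 on the log2 scale. The window of Cks1b held both motifs, and its main probe set did not pass the test. A match or its absence describes the letters of this window only, and no measurement of binding entered here. A link between the motifs and the differences was not tested.

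**Figure D1:**
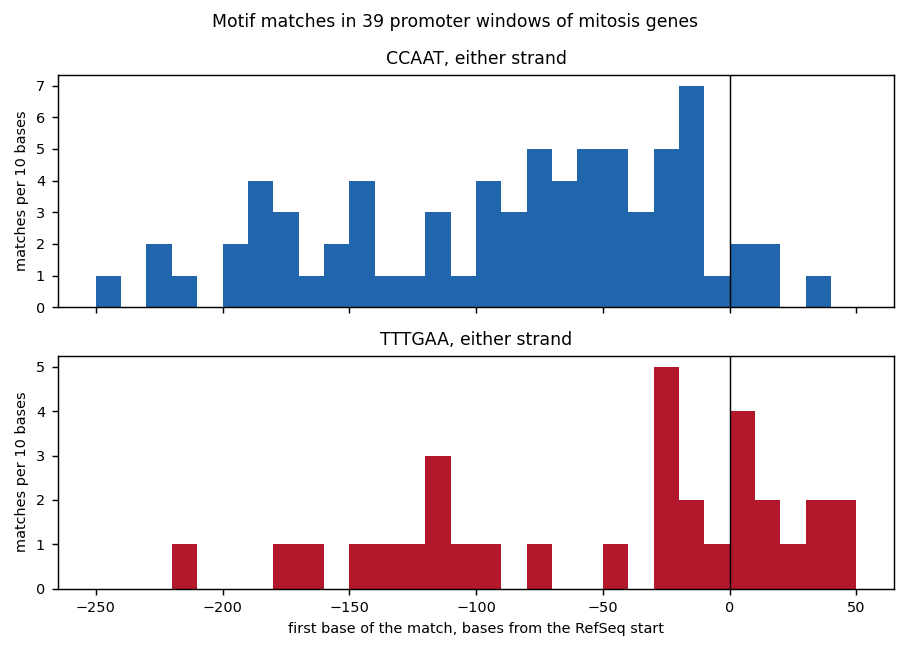
Number of CCAAT and TTTGAA matches per 10 bases (y axis) by distance of the first base of the match from the RefSeq start (x axis, bases) in 39 promoter windows of mitosis genes. Of 73 CCAAT matches, 42 fell in the 100 bases before the start, while the 32 TTTGAA matches were spread more widely and 11 of them lay after it.

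Signals are array intensities scaled to a common trimmed mean, and values under 57.5, the pooled 30th percentile, count as that floor in all differences. The probe set with the highest mean stood for its gene. Differences are on the log2 scale with their standard error, with n = 3 arrays per group, and a gene was called at an adjusted p under 0.05. A fold is a lower bound, written as at least, where each array of the lower group lay at the floor, and it depends on the floor where some did. The NMRI glands all lay at the floor for Cdc25c, Melk, Bub1, Bub1b, Ttk, Cenpa, Cenpe and Ect2, so the place of these 8 genes in an order of differences is not known, and orders below are of fitted values at this floor. The number of arrays limits the precision. Nothing in the labels beyond the sample numbers and tumor names shows separate mice, so the p-values speak only of the spread among these samples. In whole tissue, more dividing cells and more RNA per cell cannot be told apart.

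In lactating glands of WAP-SVT/t mice 39 of the 42 genes were higher than in NMRI glands and 0 were lower, while 6.08% of all 7899 genes tested were higher and 4.03% lower. The same 39 genes lay higher in each transgenic gland than in any NMRI gland, against 16.3% of all genes. Since most of the 42 met the filter through the tissue where they are high, these counts describe the set. With no filter 35 of the 42 were higher, against 3.16% of all 12393 genes. The median difference was 2.98, against 0.012 over all genes. Cks1b, Cenpe and Foxm1 did not pass. Fitted folds of the called genes ran from 2.19-fold for Cdc25b to 25.1-fold for Mki67. Between glands with the same number the median difference was 3.18 for pair 1, 2.89 for pair 2 and 2.77 for pair 3, and 41, 41 and 40 of the 42 genes lay above 0.

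Tumors stood in the same relation to NMRI glands, the control shared with that comparison. There 39 of 42 genes were higher and 0 lower, against 12.9% of all genes higher and 11.7% lower. The groups did not overlap for 41 of the 42 in either direction, against 43.9% of all genes. Among these, Foxm1 lay lower in tumors, with 402, 354 and 423 against 459, 431 and 469 in NMRI glands. Cks1b was separated only narrowly, by 3629.5 in the lowest tumor against 3607 in the highest NMRI gland. The median was 3.12, against 0.023 over all genes. With no filter 38 of 42 were higher, against 6.96% of all genes. The largest fitted folds were 22.00-fold for Top2a, 20.7-fold for Ube2c and 19.9-fold for Cdc20.

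**Figure D2:**
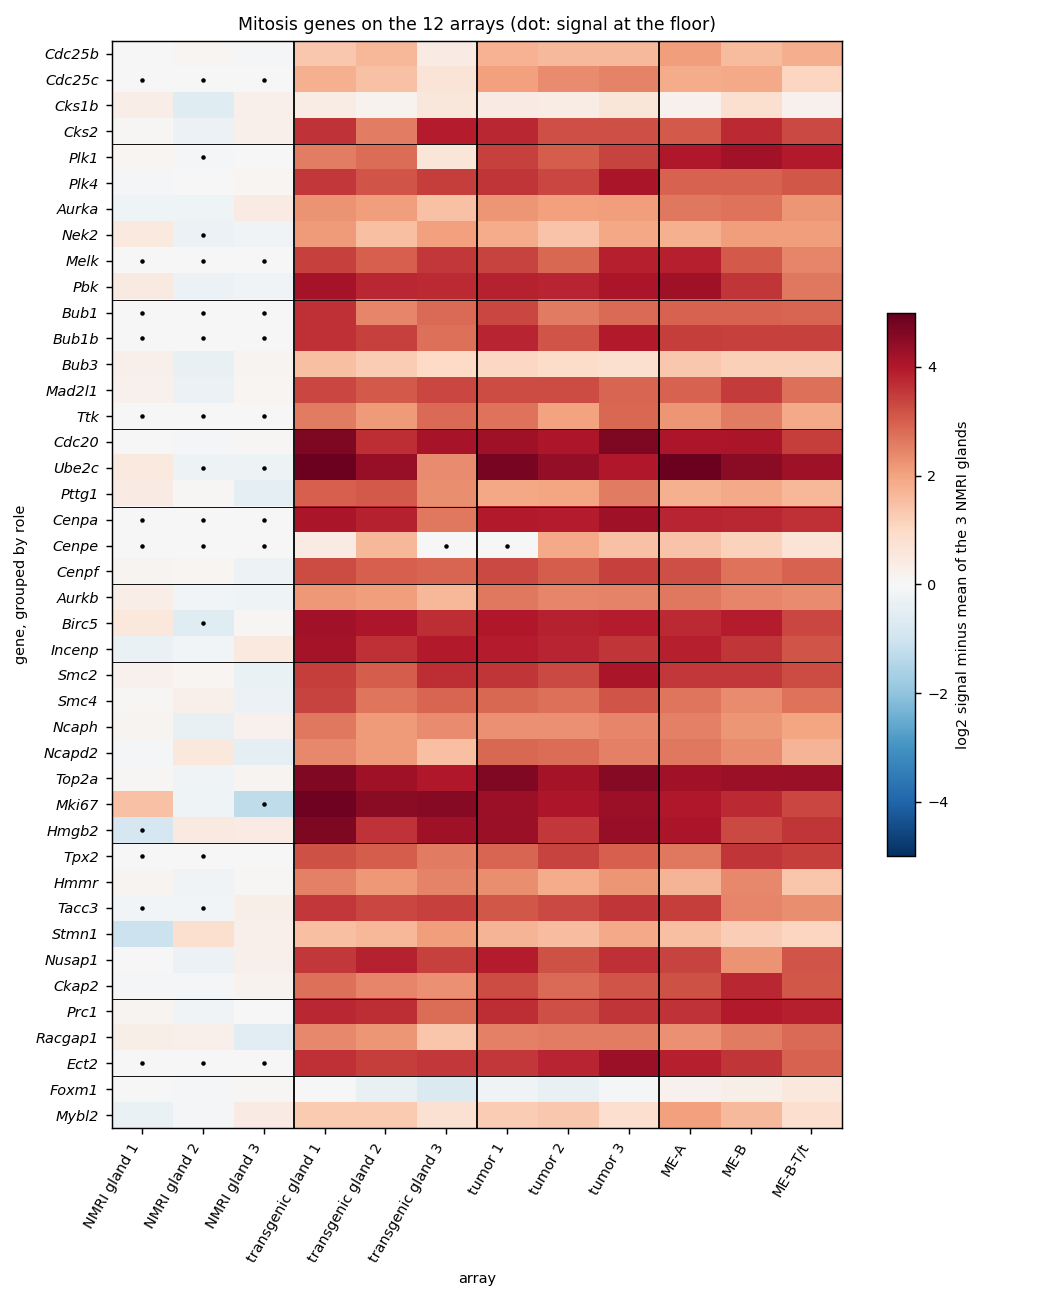
Log2 signal of the main probe set of each of 42 mitosis genes (rows, grouped by role) on each of 12 arrays (columns), minus the mean of the 3 NMRI glands, on a color scale from -5 to 5, with a dot where the signal lay at the floor of 57.5. Transgenic glands, tumors and lines are red for most genes, and Foxm1 and Cks1b stay pale on each of them.

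Among the genes that set off the mitotic kinase Cdk1, 3 of 4 were higher in transgenic glands and 3 of 4 in tumors. Cks2, a small adaptor that Cdk1 binds, had the largest fitted difference. Its signal was 164, 127 and 186 in the NMRI glands, 1915, 914 and 2379 in the transgenic glands, 2161, 1464 and 1454 in the tumors and 1316, 2088 and 1555 in the lines. The NMRI glands lay below each other array. The rise was 10.3-fold in transgenic glands (difference 3.36 ± 0.35, adjusted p = 0.000124) and 10.6-fold in tumors (3.41 ± 0.35, 7.02e-05). Cks1b, its close relative, which also takes part in degradation of a cell cycle inhibitor, was well above the floor in each group. It measured 3607, 1864 and 3376 in the NMRI glands, 3633, 3196 and 4205 in the transgenic glands, 3786, 3629.5 and 4300.2 in the tumors and 3273, 4934 and 3284 in the lines. Apart from NMRI gland 2 the values lay close together. Its difference was 0.37 ± 0.25 in transgenic glands (adjusted p = 0.387) and 0.46 ± 0.25 in tumors (0.208). The other probe set of Cks1b, 1448441_at, measured 1059, 642 and 876 in NMRI glands and 2291, 1746 and 2467 in tumors, and was called there at 2.55-fold (adjusted p = 0.00656 over all probe sets). Cks1b was also called in tumors under 3 alternatives, quantile normalization among them.

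Both Cdc25 phosphatases, which activate Cdk1 by removing its inhibitory phosphates, were called. Cdc25b rose from 156, 162 and 143 in NMRI glands to 387, 483 and 203 in transgenic glands and 510.4, 468 and 473 in tumors, which is 2.19-fold and 3.15-fold. Transgenic gland 3 was the lowest of the transgenic arrays. Cdc25c lay at the floor in the NMRI glands and reached 198, 160.5 and 90.3 in transgenic glands and 237, 296 and 322 in tumors, at least 2.47-fold and at least 4.92-fold higher. In transgenic glands the call of Cdc25b was lost in 9 of 26 alternatives and that of Cdc25c in 6 of 25, 5 of each being fits that left out 1 gland. Both were lost without NMRI gland 1, 2 or 3 and without transgenic gland 1 or 2, where the adjusted p was 0.0901 to 0.112 for Cdc25b and 0.0536 to 0.0858 for Cdc25c. Cdc25b was also lost without tumor 2 (0.0529).

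All 6 mitotic kinases were higher in both tissues, with medians of 2.66 in transgenic glands and 3.33 in tumors. Pbk, a kinase of dividing cells, had the largest difference of the kinases measured above the floor in NMRI glands, from 181, 109 and 119 in NMRI glands to 2393, 1813 and 1753 in transgenic glands and 1921, 1891 and 2246 in tumors. It was 14.8-fold and 15.1-fold higher (differences 3.88 ± 0.25 and 3.92 ± 0.25, adjusted p = 7.1e-06 and 4.08e-06). Plk4, the kinase that starts centriole duplication, rose 10.4-fold and 12.7-fold, and 4.25-fold and 5.78-fold on its other tested probe set. Melk, a kinase long used as a marker of proliferation, went from the floor to 619, 462 and 669.7 in transgenic glands, at least 10.03-fold higher. Nek2, which separates the centrosomes, had the smallest difference among the kinases. It measured 97.8, 40.5 and 62.2 in NMRI glands, 305, 199.6 and 293 in transgenic glands and 258, 190.4 and 269.6 in tumors (3.71-fold, difference 1.89 ± 0.30, and 3.36-fold, 1.75 ± 0.30). Aurka, the Aurora kinase of the spindle poles, rose 3.82-fold and 4.35-fold.

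Plk1, the Polo kinase that drives entry into and exit from mitosis, was the most uneven kinase among the transgenic glands. Its signal was 65.1, 28.2 and 61.9 in the NMRI glands, 366, 431 and 94.03 in the transgenic glands, 657, 504 and 643 in the tumors and 982, 1137 and 955 in the lines. Transgenic gland 3 lay nearer to the NMRI glands than to the other transgenic glands, and the groups did not overlap. The rise was 4.0-fold in transgenic glands (2.00 ± 0.47, adjusted p = 0.0213) and 9.72-fold in tumors (3.28 ± 0.47, 0.000649). The first call was lost in 7 of 25 alternatives, 5 of which left out 1 gland other than transgenic gland 3. Adjusted p was then 0.0686, 0.0732 and 0.0525 without NMRI gland 1, 2 or 3, and 0.0818 and 0.0724 without transgenic gland 1 or 2. Without transgenic gland 3 the difference was 2.69 (adjusted p = 0.000115).

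Each of the 5 spindle checkpoint genes was higher in both tissues. Bub1b, the kinase-like protein BubR1 of the checkpoint complex, lay at the floor in the NMRI glands and measured 732, 612 and 391 in transgenic glands, 799.6, 510.1 and 886 in tumors and 630.0, 611 and 607 in lines. That is at least 9.74-fold higher in transgenic glands (3.28 ± 0.29, adjusted p = 3.98e-05) and at least 12.4-fold higher in tumors (3.63 ± 0.29, 1.17e-05). Mad2l1, the inhibitor that holds Cdc20, rose 9.52-fold and 8.85-fold. Bub1 and Ttk, the kinases that recruit the checkpoint to kinetochores, went from the floor to 717, 309.5 and 406 and 349, 250.4 and 409.6 in transgenic glands. They were at least 7.798-fold and at least 5.73-fold higher. Bub3, the adaptor that anchors both Bub kinases, was well above the floor in lactating NMRI glands, with 746, 482 and 692 in NMRI glands against 1775, 1498 and 1270.3 in transgenic glands and 1296, 1173 and 1102 in tumors. Its rise was 2.39-fold (1.26 ± 0.24, adjusted p = 0.00734) and 1.89-fold (0.92 ± 0.24, 0.0182). In tumors that call was lost without NMRI gland 2 (adjusted p = 0.0717) and without tumor 1 (0.0604).

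The 3 anaphase genes measured were higher in both tissues. Cdc20, the activator of the anaphase-promoting complex, measured 109, 106 and 112 in NMRI glands, 2749.5, 1391 and 1904 in transgenic glands, 2066, 1810.2 and 2738 in tumors and 1814, 1828 and 1214 in lines. The NMRI values lay within a narrow range and far below all others. The rise was 17.8-fold (4.15 ± 0.28, adjusted p = 7.1e-06) and 19.9-fold (4.31 ± 0.28, 4.08e-06). On its other tested probe set, 1416664_at, it rose 7.12-fold and 10.5-fold. Ube2c, the enzyme that hands ubiquitin to the complex, rose 14.7-fold and 20.7-fold. Its values were 96.6, 7.97 and 45.00 in NMRI glands and 2062, 1405 and 351 in transgenic glands, so transgenic gland 3 was again the low one. Pttg1, the securin that blocks separase, had the smallest difference of the 3 on the main probe sets. It measured 619, 477 and 339 in NMRI glands, 3679.9, 3869.8 and 2306 in transgenic glands and 1776, 1830.2 and 2814 in tumors. Its rise was 6.898-fold (2.79 ± 0.31, adjusted p = 0.000178) and 4.505-fold (2.17 ± 0.31, 0.000555), and tumors and transgenic glands overlapped. The other tested probe sets gave 4.11-fold and 10.9-fold in transgenic glands, and 2.86-fold and 11.4-fold in tumors.

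Of the 3 centromere genes, Cenpa and Cenpf were higher in both tissues and Cenpe passed in neither. Cenpa, the histone H3 variant that marks centromeres, lay at the floor in NMRI glands and measured 986, 817 and 353 in transgenic glands, 909, 877 and 1072 in tumors and 796, 792 and 729 in lines. It was at least 11.4-fold higher in transgenic glands (3.52 ± 0.34, adjusted p = 6.97e-05) and at least 16.5-fold higher in tumors (4.05 ± 0.34, 1.52e-05). Cenpf, a large kinetochore protein of late interphase and mitosis, rose 8.32-fold and 9.5-fold. Cenpe, the centromere-bound motor that moves chromosomes to the spindle equator, had values of 75.7, 179.6 and 22.8 in transgenic glands, 23.7, 216 and 159.8 in tumors and 153, 129 and 92.3 in lines, with the NMRI glands at the floor. Transgenic gland 3 and tumor 1 lay at the floor as well, while the other transgenic arrays did not. Its difference was 0.68 ± 0.52 in transgenic glands (adjusted p = 0.449) and 1.13 ± 0.52 in tumors (0.14). Without tumor 1 the latter was 1.69 with an adjusted p of 0.0294.

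The chromosomal passenger complex, which corrects faulty attachments of chromosomes and later guides cytokinesis, rose in all 3 subunits measured. Birc5, or survivin, had values of 127, 7.38 and 91.7 in NMRI glands, 1627, 1437 and 1126 in transgenic glands, 1417, 1252 and 1319.9 in tumors and 1158, 1346 and 896 in lines. It was 15.8-fold higher in transgenic glands (3.98 ± 0.30, adjusted p = 1.19e-05) and 15.2-fold higher in tumors (3.92 ± 0.30, 8.51e-06). Incenp, the scaffold of the complex, rose 15.2-fold and 13.5-fold on its main probe set, 1439436_x_at, and 4.54-fold and 6.70-fold on 1423092_at. The third, 1423093_at, measured 82.9, 101 and 114 in NMRI glands and 52.2, 111 and 72.1 in transgenic glands, which overlapped, and was too low to be tested in tissue. Aurkb, its kinase, had the smallest difference, from 116, 83.6 and 78.1 in NMRI glands to 412, 389 and 285 in transgenic glands and 572, 498 and 502 in tumors. Its rise was 3.92-fold (1.97 ± 0.25, adjusted p = 0.00048) and 5.74-fold (2.52 ± 0.25, 4.73e-05).

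The 7 genes of chromosome structure were all higher in both tissues and held the 3 largest differences in transgenic glands among genes with an NMRI gland above the floor. Mki67, the Ki-67 protein that coats mitotic chromosomes and a standard proliferation marker, measured 382, 121 and 53.8 in NMRI glands, 4051, 3161 and 3255 in transgenic glands, 2667, 2299 and 2715 in tumors and 2209.6, 1824 and 1416 in lines. NMRI gland 1 was the highest of the NMRI glands and still lay far below the lowest transgenic array. Its rise was 25.1-fold (4.65 ± 0.52, adjusted p = 0.000206) and 18.5-fold (4.21 ± 0.52, 0.000239). Top2a, the topoisomerase that untangles sister chromatids, went from 111, 94.98 and 117 to 2651, 2025 and 1700.2 in transgenic glands and 2677, 1937 and 2542 in tumors. With 19.5-fold and 22.00-fold it had the smallest adjusted p of the 42 genes in both comparisons (3.06e-06 and 1.45e-06). Hmgb2, a chromatin protein that bends DNA, rose 17.98-fold and 16.8-fold.

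Condensin, the ring that compacts chromosomes, rose with them. The core subunits Smc2 and Smc4 were 10.5-fold and 7.95-fold higher in transgenic glands and 12.6-fold and 7.56-fold higher in tumors. The regulatory subunits Ncaph and Ncapd2 rose 5.17-fold and 4.03-fold in transgenic glands and 5.03-fold and 6.602-fold in tumors. Ncapd2 had the smallest difference of the 7 in transgenic glands, from 83.00, 123 and 62.2 in NMRI glands to 459, 372 and 242 in transgenic glands and 624, 599 and 487 in tumors (2.01 ± 0.31, adjusted p = 0.00222, and 2.72 ± 0.31, 0.000151). In tumors Ncaph had the smallest, 2.33 ± 0.25.

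Spindle and microtubule genes were higher in 6 of 6 cases in both tissues. Nusap1, which bundles spindle microtubules, had the largest difference, from 80.3, 64.5 and 94.3 in NMRI glands to 921, 1141 and 839.7 in transgenic glands and 1203, 715 and 987 in tumors. It was 12.2-fold and 12.02-fold higher (3.61 ± 0.27 and 3.59 ± 0.27, adjusted p = 1.15e-05 and 7.73e-06). Tacc3 and Tpx2, which stabilise spindle microtubules, rose 10.8-fold and 7.63-fold in transgenic glands, and the microtubule-associated Ckap2 and Hmmr 5.66-fold and 5.22-fold. Stmn1, the microtubule destabiliser stathmin, had the smallest difference of these. It measured 758, 2807 and 1896 in NMRI glands, 4541, 5084 and 6841 in transgenic glands, 5117, 4684 and 5999 in tumors and 4524, 3694 and 3383 in lines. NMRI gland 1 was well below the other NMRI glands. The rise was 3.396-fold (1.76 ± 0.39, adjusted p = 0.0157) and 3.29-fold (1.72 ± 0.39, 0.00906). The call in transgenic glands was lost without transgenic gland 3 (adjusted p = 0.0502), without both glands numbered 3 (0.0728) and without a filter on low genes (0.0757). That in tumors was lost without a filter (0.0504) and with the Gapdh ratio as a covariate (0.0559).

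All 3 cytokinesis genes were higher in both tissues. Ect2, the exchange factor that activates RhoA at the cleavage site, lay at the floor in NMRI glands and measured 717, 624 and 663 in transgenic glands, 665, 816 and 1122 in tumors and 852, 692 and 442 in lines. It was at least 11.6-fold higher in transgenic glands (3.54 ± 0.24, adjusted p = 7.1e-06) and at least 14.7-fold higher in tumors (3.88 ± 0.24, 3.06e-06). Prc1, which cross-links the microtubules of the central spindle, rose 10.7-fold and 11.3-fold. Racgap1, the partner that recruits Ect2, had the smallest difference, from 136, 132 and 76.5 in NMRI glands to 579.9, 509.7 and 293 in transgenic glands and 631, 662 and 663 in tumors (1.99 ± 0.31, adjusted p = 0.00222, and 2.55 ± 0.31, 0.000224).

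The 2 transcription factors that switch on late cell cycle genes were at the low end of the set. Mybl2 measured 90.5, 107 and 151 in NMRI glands, 284, 281 and 195 in transgenic glands, 275, 289 and 205 in tumors and 465, 353 and 204 in lines. The NMRI glands did not overlap with the other tissues. Its rise was 2.197-fold (1.14 ± 0.28, adjusted p = 0.0265) and 2.23-fold (1.16 ± 0.28, 0.0125). In transgenic glands the call was lost in 7 of 26 alternatives, among them those without NMRI gland 1 (adjusted p = 0.116), NMRI gland 2 (0.088), transgenic gland 1 (0.0881) or transgenic gland 2 (0.0788), and with the 6 glands paired by number (0.052). In tumors it was lost without NMRI gland 1 (0.0558).

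None of the 4 probe sets of Foxm1 passed a test in tissue. The brightest, 1448833_at, measured 459, 431 and 469 in NMRI glands, 454, 352 and 272 in transgenic glands, 402, 354 and 423 in tumors and 522, 551 and 657 in lines. The tissue values lay within a narrow band with no rise (-0.36 ± 0.24, adjusted p = 0.363, in transgenic glands and -0.21 ± 0.24, 0.565, in tumors). Each tumor lay below each NMRI gland on this probe set. Probe set 1448834_at lay at the floor in all 6 glands and in tumor 3, at 79.2 and 98.3 in tumors 1 and 2, and at 147, 195 and 180.2 in the lines. It was thus above the floor in each line and in no gland, and its signal in tissue was too low for it to be tested there. Probe set 1417748_x_at measured 368, 239 and 98.8 in NMRI glands, 261, 143 and 107 in transgenic glands, 164, 251 and 203 in tumors and 379.6, 382 and 399 in the lines. Its difference was -0.38 in transgenic glands, close to that of the brightest. In lines against tumors the differences were 0.55 on 1448833_at, 0.93 on 1417748_x_at and 1.18 on 1448834_at, with adjusted p of 0.278, 0.129 and 0.117 over all probe sets in limma's test. The remaining one, 1437138_at, lay at the floor on all 12 arrays. Another probe set that the platform names for Foxm1 together with other genes was left out.

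**Figure D3:**
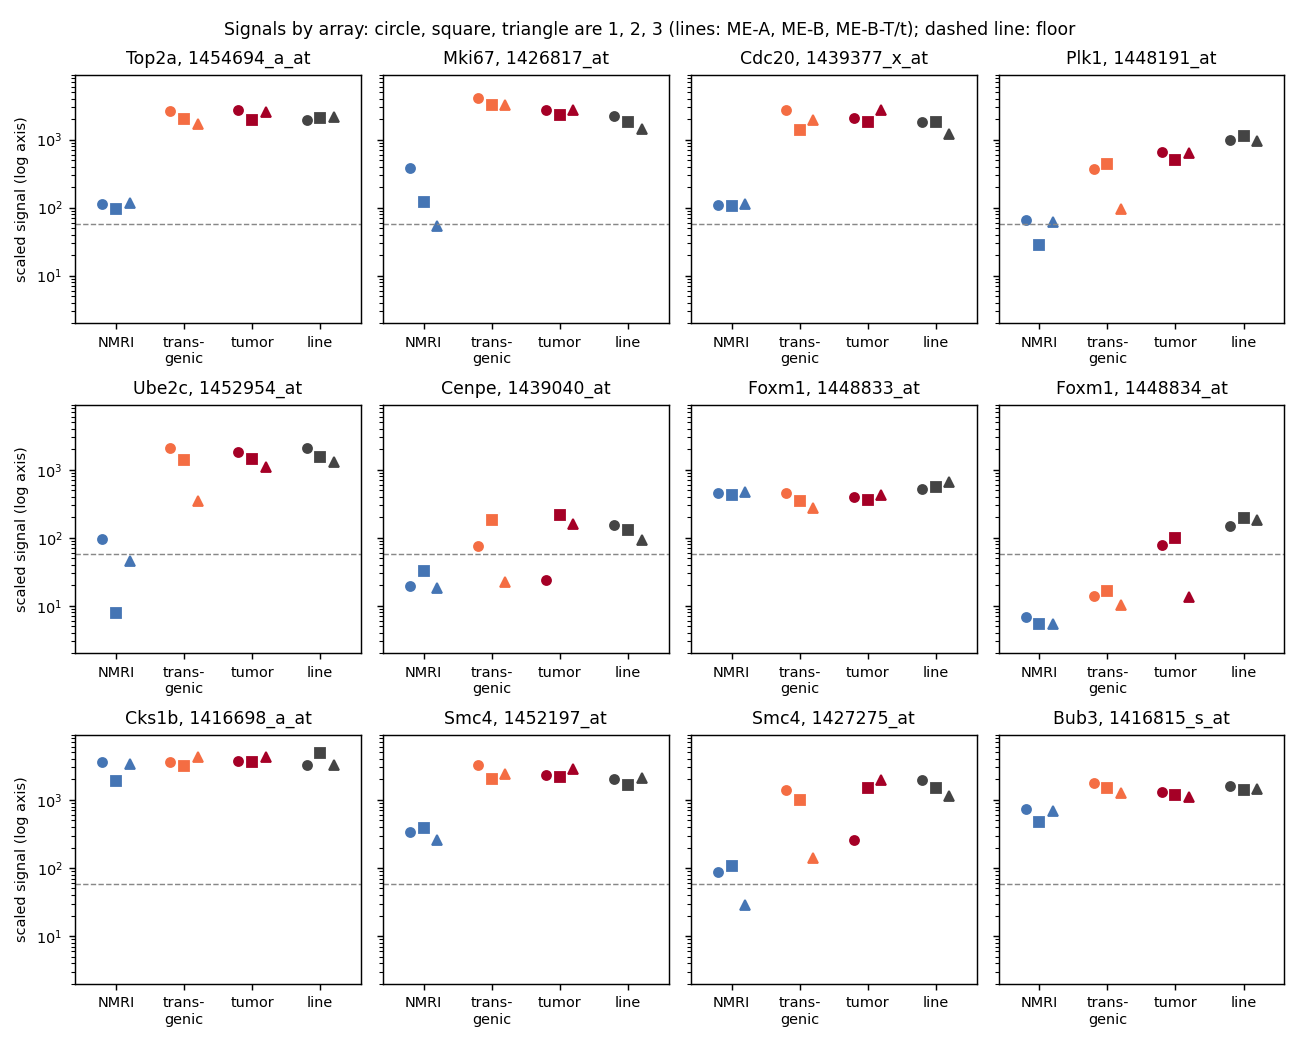
Scaled signal on a log axis (y axis) by group (x axis) for 12 probe sets of 10 mitosis genes, with a point for each array and the floor of 57.5 as a dashed line. Top2a, Mki67 and Cdc20 separate NMRI glands from all other arrays, transgenic gland 3 (triangle) is low for Plk1, Ube2c and Cenpe, and the panels of Foxm1 and Smc4 show probe sets of 1 gene that differ.

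Between tumors and transgenic glands none of the 42 genes passed in either direction in limma's test (0 higher and 0 lower), while 2.95% of all genes did (1.24% higher and 1.71% lower), and 5 of the 42 had an unadjusted p under 0.05. The 233 genes behind that share ran from 71 to 284 over the alternatives, and were 122, 132 and 87 without transgenic gland 1, transgenic gland 3 or tumor 2. The median difference was 0.086, with 27 genes above 0 and 15 below. The 95% intervals of 30 genes lay within a 2-fold change either way, and those of 41 within a 4-fold change, Plk1 being the exception. The smallest adjusted p was 0.135, for Cdc25c, whose 198, 160.5 and 90.3 in transgenic glands stood against 237, 296 and 322 in tumors (0.99 ± 0.31). Plk1 had the largest difference, 1.28 ± 0.47 with an interval of 0.24 to 2.32, and 0.59 without transgenic gland 3. Tumors and transgenic glands did not overlap for Cdc25c, Plk1, Aurkb, Ncapd2, Ckap2 and Racgap1, which were higher in each tumor, and for Mki67, which was lower in each tumor. These 7 of 42 genes compare with 19.6% of all genes. Mki67 measured 4051, 3161 and 3255 in transgenic glands and 2667, 2299 and 2715 in tumors, a difference of -0.44 ± 0.52 (adjusted p = 0.724). Pttg1 had the lowest difference on the main probe sets, -0.61 ± 0.31 with an interval of -1.29 to 0.06. Its other tested probe sets gave -0.52 (1419620_at) and 0.058 (1424105_a_at). By role the median differences ran from -0.058 for the spindle checkpoint genes to 0.45 for the centromere genes.

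**Figure D4:**
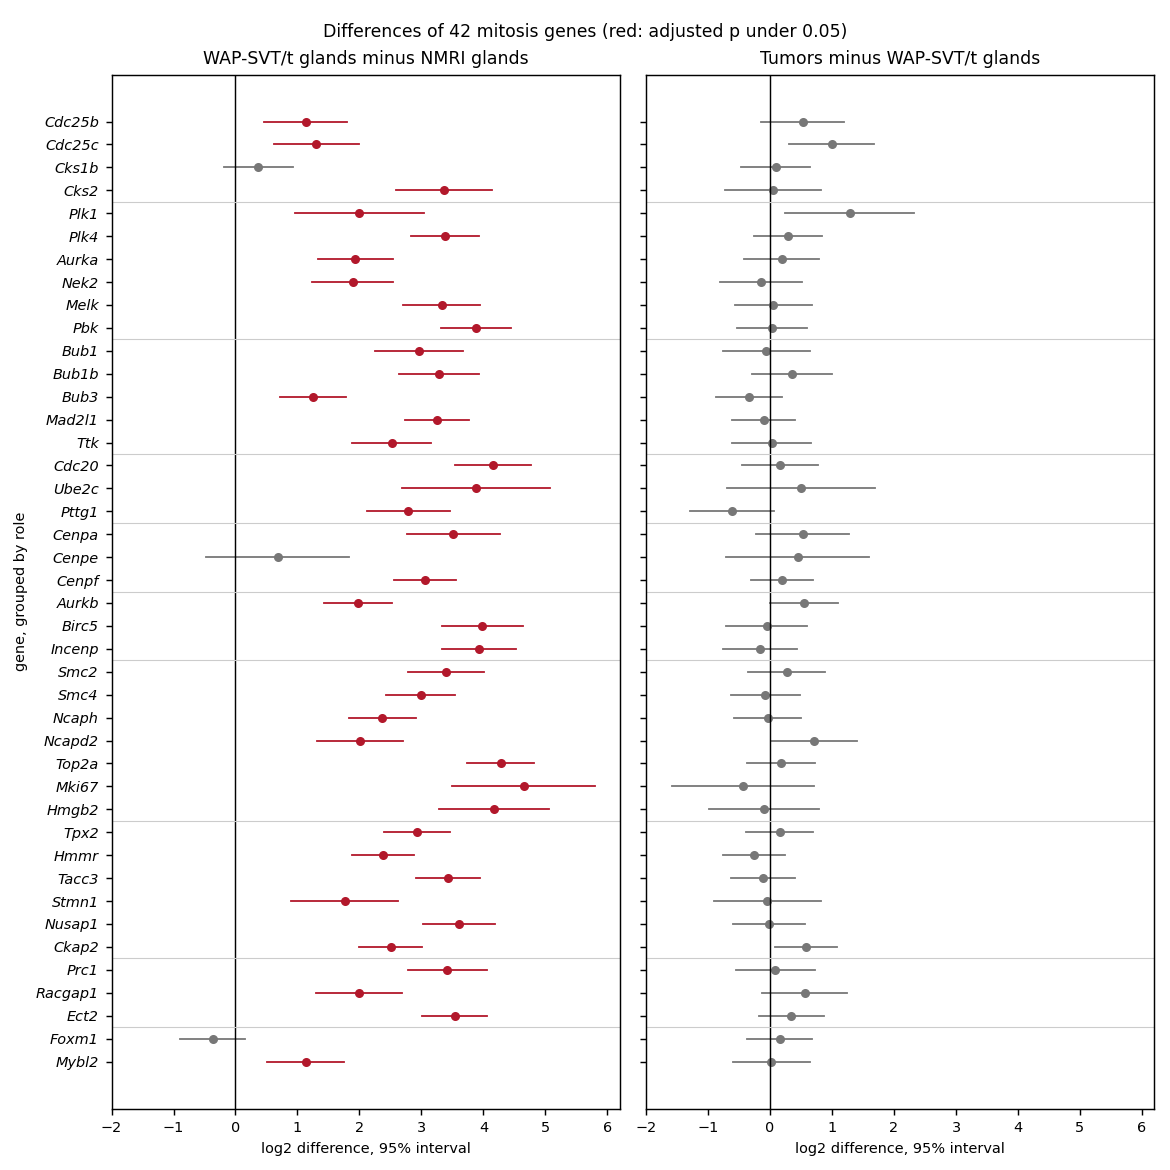
Log2 differences (x axis) with 95% intervals of 42 mitosis genes (y axis, grouped by role) for WAP-SVT/t glands minus NMRI glands (left) and tumors minus WAP-SVT/t glands (right), with genes past an adjusted p of 0.05 in red. On the left 39 genes are red and lie above 0, and on the right none is red and the median is 0.086.

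Against the tumors, the lines as a class had 0 higher and 0 lower of the 42 genes in limma's test, where 0.422% of all 7346 genes were higher and 1.88% lower. These 169 genes were 811, 64 and 108 without ME-A, ME-B or ME-B-T/t, and 76 and 81 without tumor 1 or 2. The median difference was -0.21, and the intervals of 25 genes lay within a 2-fold and of 42 within a 4-fold change. At an unadjusted p under 0.05 there were 5 genes. Lines and tumors did not overlap for 10 of the 42 genes, against 23.5% of all genes. Plk1 had the largest difference. Its 982, 1137 and 955 in the lines lay above the 657, 504 and 643 of the tumors (0.77 ± 0.22, adjusted p = 0.143). Foxm1 was likewise above each tumor in each line (0.55 ± 0.22, 0.276). Below each tumor in each line lay Plk4 (-0.68 ± 0.25, adjusted p = 0.245), with 653, 643 and 717 against 1002, 857 and 1434, and Cdc25c (-0.69 ± 0.31, 0.318), with 207, 214 and 121 against 237, 296 and 322. Mki67 was below each tumor as well, with 2209.6, 1824 and 1416 in the lines (-0.51 ± 0.22, adjusted p = 0.293). So were Pttg1, Cenpa, Smc4 and Stmn1, while Bub3 was above each tumor in each line. Without ME-B-T/t the median difference was -0.052. The lines differ from tumor tissue in more than culture: summed macrophage markers were 602 to 750.4 in the lines and 9371 to 12458.5 in the tumors, and all 8 were lower in lines.

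The 3 lines had 1 array each, so their differences carry no test and no error, and a 2-fold difference was counted. ME-B-T/t differed from ME-B by that much in 1 of 42 genes, Hmmr, with 378 against 775 (log2 difference -1.03), where 12.4% of all genes differed. That was on probe set 1425815_a_at. The others of Hmmr gave 354 against 471 (1450156_a_at), 214 against 208 (1427541_x_at) and 215 against 124 (1450157_a_at). Hmmr was thus not lower in ME-B-T/t on all of its probe sets. ME-A differed from ME-B in 2 genes, both higher in ME-A, against 19.6% of all genes. These were Tacc3, with 693 against 344, and Nusap1, with 820.03 against 369. ME-A differed from ME-B-T/t in 5 genes, all higher in ME-A, against 24.1% of all genes. They were Pbk (2510.3 against 826), Melk (852 against 314), Mybl2 (465 against 204), Tacc3 (693 against 322) and Hmgb2 (2135 against 1055, on probe set 1437313_x_at). The probe set of Hmgb2 used in the other comparisons, 1452534_a_at, gave 1776 against 1235, less than 2-fold. ME-B-T/t was the lowest line for 28 of the 42 genes, ME-A for 8 and ME-B for 6. Some gaps were small, as for Bub1 with 443, 444 and 433 in the order of the lines. Which line was lowest was not counted over all genes, so these counts describe the set only. The median difference was -0.23 between ME-B-T/t and ME-B, 0.031 between ME-A and ME-B, and 0.29 between ME-A and ME-B-T/t, while over all genes it was 0.042 in the first case and nearer to 0 in the others. All 3 lines stood far above the NMRI glands, with median values of 2.96, 2.83 and 2.79 above the mean of those glands for the lines in their order. The labelled origin was not shared by the markers: summed luminal epithelial markers were 29715 in ME-A, 1399 in ME-B and 563 in ME-B-T/t, with 0, 5 and 6 of 9 at the floor.

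**Figure D5:**
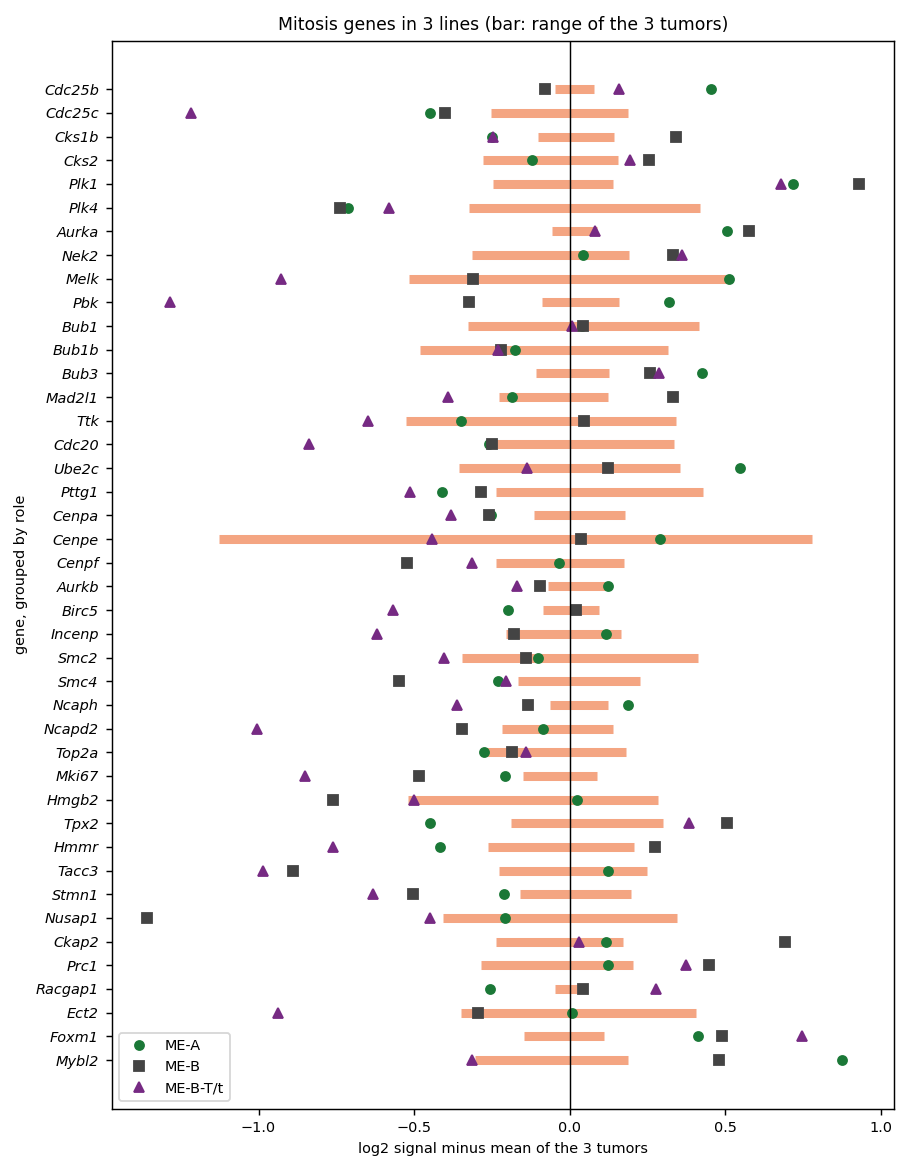
Log2 signal minus the mean of the 3 tumors (x axis) for 42 mitosis genes (y axis, grouped by role) in 3 lines (points, 1 array each), with the range of the 3 tumors as a bar, on the probe sets of the comparison of lines with tumors. Plk1, Foxm1 and Bub3 lie above the bar in each line, and Plk4, Cdc25c, Mki67, Pttg1, Cenpa, Smc4 and Stmn1 lie below it. ME-B-T/t is the leftmost point for most genes.

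Probe sets of 1 gene mostly had the same call and often differed in size. Of the 77 probe sets 65 could be tested in tissue, and 56 were higher in transgenic glands and 60 in tumors, with 0 lower in either. Among all 11650 probe sets tested, 655 were higher in transgenic glands and 1462 in tumors, against NMRI glands. In 16 of 19 genes with several tested probe sets, all of them had the same call in transgenic glands, and in 17 of 19 in tumors. The folds of a gene's tested probe sets lay more than 1.5 times apart in 12 of the 19 genes in transgenic glands and in 13 in tumors, and all probe sets were called in 9 and 11 of these. Cenpf was one exception: 1427161_at rose 8.32-fold, while 1452334_at stayed at 125, 185 and 126 in NMRI glands and 154, 134 and 159 in transgenic glands. Smc4 was another, with 1452197_at called and 1427275_at at 1409, 1004 and 139.7 in transgenic glands and 256, 1477 and 1961 in tumors, against 86.7, 108 and 29.1 in NMRI glands. The low values there were those of transgenic gland 3 and tumor 1, and the adjusted p over all probe sets was 0.0733 in transgenic glands. Probe set 1427276_at of Smc4 was not called in transgenic glands either (2.64-fold, adjusted p = 0.101). Neither was 1448113_at of Stmn1 (1.87-fold, 0.103). Both were called in tumors. Probe set 1438571_at of Bub1, 1427724_at of Top2a and 1459918_at of Bub3 lay at the floor on all 12 arrays. The names of the main probe sets of Cdc20, Incenp, Aurkb, Ncaph and Tacc3 carry the suffix _x_at, by which the manufacturer marks probes that may match other transcripts. Those of Plk4, Pbk, Bub3, Pttg1, Stmn1 and Prc1 carry the suffix _s_at, and matches to other transcripts were not examined for them either.

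The same arrays were low for several genes. Transgenic gland 3 was the lowest transgenic gland for 23 of 42 genes, gland 2 for 18 and gland 1 for 1, and gland 1 was the highest for 31. Among the tumors, tumor 2 was the lowest for 27. The ratio of the Gapdh 3-prime to 5-prime control signal, which rises as RNA is degraded, was 12.9, 2.28 and 40.3 in the NMRI glands, 10.7, 2.49 and 22.5 in the transgenic glands, 5.63, 0.982 and 0.969 in the tumors and 0.753 to 0.949 in the lines. In the glands numbered 2, where both ratios were low, the median difference of the 42 genes between transgenic and NMRI gland was 2.89. Skeletal muscle markers, summed over 8 genes, were 10061 to 21158 in the NMRI glands, 948, 1109 and 21284 in the transgenic glands, and 11391, 241 and 175 in the tumors. So transgenic gland 3 and tumor 1, the arrays at the floor for Cenpe, had the highest ratio and the most muscle signal of their groups, and the part of either in these values was not tested. Without both glands numbered 3, 38 of the 42 genes were higher in transgenic glands and 39 in tumors, against NMRI glands, and the medians were 3.02 and 3.14.

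Markers of other cell types moved between the groups as well, and their part in the results was not tested. Against NMRI glands 6.08% of all genes were higher and 4.03% lower in transgenic glands, and 12.9% and 11.7% in tumors. Summed macrophage markers were 4583 to 6314 in NMRI glands and 7105 to 11482 in transgenic glands, with 3 of 8 genes called higher there and 4 of 8 in tumors. Of B and plasma cell markers 1 of 3, and of fibroblast markers 1 of 7, were also called higher in transgenic glands. Basal markers were called lower in 6 of 6 tested genes in tumors against either gland, with Cnn1 and Oxtr at the floor in all tumors, and adipocyte markers in 5 of 5 against NMRI glands. Of T and NK cell markers 3 of the 4 tested were called lower in transgenic glands. Summed over all 8 listed, they were 1172 to 1592 in NMRI glands and 476, 1870 and 655 in transgenic glands. The sum of transgenic gland 2 thus lay above those of the NMRI glands. Luminal epithelial markers were present on each tissue array, with sums of 29701 to 44125 in NMRI glands, 29639 to 32489 in transgenic glands and 22759 to 30639.5 in tumors. Of these markers 1 of 9 was called lower in transgenic glands and 3 of 9 in tumors, against NMRI glands. In tumors against NMRI glands 4 of 6 endothelial markers were also lower, as were 3 of 4 T and NK cell, 1 of 7 fibroblast, 1 of 3 B and plasma cell and 1 of 8 skeletal muscle markers.

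Other mitosis genes, from lists chosen for this account with earlier results known, changed in the same direction where they passed. Of 89 listed genes 69 were on the array and 65 tested in tissue. In transgenic glands 29 were higher and 0 lower, with a median difference of 0.89, against 6.08% of all genes higher and 4.03% lower. In tumors 41 were higher and 0 lower against NMRI glands, with a median of 1.20, against 12.9% and 11.7% of all genes. Kinetochore genes were higher in 13 of 21 cases in transgenic glands and 16 of 21 in tumors. Cenpk, a subunit of the inner kinetochore, rose 9.85-fold in transgenic glands, Ska2, of the outer kinetochore, 8.84-fold in tumors, and Trip13, the ATPase that dismantles the checkpoint complex, 8.05-fold and 8.12-fold. Cohesin and other condensin genes were higher in 5 and 7 of 11, led by the condensin II subunit Ncapg2 (9.41-fold and 10.3-fold) and Cdca5, or sororin, which secures cohesion (7.25-fold and 6.64-fold).

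Genes listed for the anaphase-promoting complex were higher in 2 of 11 cases in each tissue, against 6.08% of all genes in transgenic glands and 12.9% in tumors. The medians were 0.20 and 0.24. The 2 were Anapc11, its catalytic subunit (3.10-fold and 3.59-fold), and Cdc23, a scaffold subunit (2.27-fold and 2.46-fold). Further spindle, centrosome and cytokinesis genes were higher in 9 and 16 of 22. Cep55, of abscission, rose 12.02-fold in transgenic glands, Anln, the anillin of the contractile ring, 11.3-fold and 17.9-fold, and Cdca3, a trigger of mitotic entry, 13.4-fold in tumors. Psrc1, a microtubule regulator, was the only one of the 65 genes past the threshold between tumors and transgenic glands. With NMRI glands at the floor, it measured 135, 241 and 95.4 in transgenic glands and 651, 1347 and 473 in tumors, 5.11-fold higher (log2 difference 2.35, adjusted p = 0.0122). The call was lost without transgenic gland 1 (0.0522) and without tumor 2 (0.0526). Between lines and tumors 0 of 65 other mitosis genes passed in limma's test.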

How the data were processed

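RNA of 12 samples was hybridised to single-color Affymetrix arrays. The deposited values are probe set signals, an intensity on a linear scale that the authors made with MAS5, per the submitters' processing notes. Of MAS5's settings and its scaling target nothing is given in the sources used here. Arrays were scaled to the mean of their trimmed means (lowest and highest 2% left out), which lay within 1.19-fold of each other. Signals below the pooled 30th percentile (57.5) were set to it, and log2 values were taken. Between 67.7% and 72.6% of probe sets lay above this floor on each array. The 64 control probe sets, and probe sets named to several genes (691) or none (1555), were left out. The probe set with the highest mean stood for its gene, and genes were kept with at least 3 arrays above the median of 139.9.

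Tests used limma 3.58.1 (R 4.3.3) with lmFit and eBayes with an intensity trend, with Benjamini-Hochberg adjustment over all genes tested, two-sided, at 0.05. The 9 tissue arrays were fitted together in 3 groups, and lines and tumors as 2 classes of 3 arrays. The comparisons of transgenic glands and of tumors with NMRI glands share those glands, and both tissue comparisons of transgenic glands share theirs. All genes are named by role, with values in full for the largest and smallest differences of each role. Of the other mitosis lists, the 2 genes with the largest difference per list and comparison among those that passed are named. The members, lists, motifs and tests were chosen with earlier results of these data known. On simulated data for transgenic against NMRI glands over 7899 genes, log2 changes of 1 and 2 were called in 31% and 85% of cases, and for lines against tumors over 7346 genes in 10% and 53%.

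Glands carry the same sample numbers in both gland groups, NMRI and WAP-SVT/t. Deviations from the group means correlated between equally numbered NMRI and transgenic glands (r = 0.22, 0.37 and 0.37 for numbers 1, 2 and 3, over all genes tested). These numbers were therefore taken to pair the glands in the alternatives with a replicate block and in differences between equally numbered glands. The main fit did not use them. The pairing rests on the values, since the labels give no shared litter or day. The Gapdh ratio followed the same numbers. It was 12.9, 2.28 and 40.3 in NMRI glands 1, 2 and 3, and 10.7, 2.49 and 22.5 in the transgenic glands. Its part in these correlations was not tested. Alternatives were other floors, scalings, filters, probe set choices and fits, replicate blocks and left-out arrays. A fit of the 6 glands alone with a replicate block, and fits without both glands numbered 3, were added after the values had been seen. Promoter windows are from RefSeq tables, and matplotlib 3.10.9 (Python 3.11.15) drew the figures.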

Additional observations from a re-analysis of the deposited data

How the results depend on the processing

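Against NMRI glands the count of higher genes stayed between 35 and 39 of 42 in transgenic glands and between 38 and 40 in tumors over all alternatives, and no gene changed direction while called. In transgenic glands 33 of the 39 calls were kept in each of the alternatives, and in tumors 36 of 39. Tumors against transgenic glands, and lines against tumors, gave 0 calls among the 42 genes in each alternative. The size of the median moved with how low signals and several probe sets were handled. In transgenic glands it was 2.64 with the floor at the 40th percentile and 2.32 with the mean over the probe sets of a gene. In tumors against NMRI glands it was 3.33 with the floor at the 20th percentile, 2.76 at the 40th, 2.55 with the mean over probe sets and 3.30 with the probe set of highest variance. For lines against tumors it ran from -0.32 to -0.052 when 1 array was left out, the latter without ME-B-T/t. Counts between single lines are small. ME-B-T/t and ME-B differed in 0 genes on the signals as deposited, with the mean over probe sets and at 4-fold. ME-A and ME-B differed in 1 gene on the signals as deposited and in 1 with no floor and a pseudocount of 16, and in 0 with the mean over probe sets and at 4-fold. ME-A and ME-B-T/t differed in 0 genes at 4-fold. Calls over all genes moved more: 798 for transgenic glands became 430 without NMRI gland 1 and 466 without NMRI gland 2. For tumors against transgenic glands they ran from 71 (no filter) to 284, and for lines against tumors from 64 (without ME-B) to 811 (without ME-A). With a replicate block in the fit of all 9 tissue arrays, 39, 0 and 39 genes were higher in transgenic glands against NMRI glands, tumors against transgenic glands and tumors against NMRI glands, and with the 6 glands alone 38, Mybl2 being the call lost. The block changed no other call. Correlations of tumors with equally numbered glands were uneven (r = 0.01, 0.16 and -0.10 with NMRI glands, and -0.17, 0.33 and -0.10 with transgenic glands). The equally numbered tumor was the best match for NMRI glands 1 and 2 and transgenic gland 2, and not for the other glands. No paired analysis was possible for lines against tumors because the lines carry no shared number. Few arrays per group and the floor limit what small differences and low genes can show.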
